A study of Mus musculus with 20 samples.

Results

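The liprins are a family of 6 genes in the mouse: the α liprins Ppfia1, Ppfia2, Ppfia3 and Ppfia4, and the β liprins Ppfibp1 and Ppfibp2. They were taken by name from a table of 55487 genes, and all 6 were found there. The family was taken up because Ppfibp1 was already known to differ between soma libraries of different genotype, so the soma comparison below is a description and carries no test for the members. The data are RNA counts from subcerebral projection neurons, the cortical neurons that send axons to brainstem and spinal cord, of mice at postnatal day 1. There are 20 libraries in 4 groups of 5. WT somata and somata labelled Bcl11b KO came from cortex, and WT growth cones and growth cones labelled Bcl11b KO, which are the tips of the growing axons, came from brainstem and spinal cord. All 4 groups share the same cell type label and age. The series text calls the mutant neurons Bcl11b-null. The allele, the sex, the number of animals behind a library and the way in which the neurons were marked and isolated are not given in the sources used here. Nothing says that libraries of a group came from separate animals, so p-values measure only the spread between libraries.

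Liprins are cytoplasmic scaffold proteins. The α liprins bind the inner part of the LAR-type receptor phosphatases and, at the presynaptic active zone, the RIM, ELKS and CASK scaffolds, and they are linked to the kinesin Kif1a, which carries synaptic vesicle precursors along axons. The β liprins bind α liprins through their SAM domains. Liprin-β1 (Ppfibp1) is also part of membrane-bound platforms with KANK, ELKS, LL5 and CLASP proteins that hold microtubule ends near cell adhesions.

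The libraries held 18962308 to 51205154 counts each, and 17433 to 20084 genes had at least 1 count. Bcl11b, the targeted gene, was not lower where the label says KO. Levels are given in CPM (counts of a gene relative to library size, scaled by TMM over the 20 libraries), and on this scale Bcl11b stood at 542 to 806 CPM in WT somata and 1074 to 1222 CPM in KO-labelled somata. In growth cones the ranges were 72.6 to 123 CPM in WT and 66.8 to 141 CPM in KO-labelled libraries. The counts are totals per gene and not per exon, so the loss of a part of the gene could not be examined. The direction of each genotype difference below rests on the labels as deposited, and whether working Bcl11b is lost in the KO-labelled libraries was not tested. The labelled cell type was checked with 12 markers of subcerebral projection neurons. Their summed level was 2434 to 2728 CPM in WT somata, 2958 to 3203 CPM in KO-labelled somata, and 899 to 1193 CPM in growth cones of both labels, with none at 0 in any group. The list includes Bcl11b itself. In CPM of the library total Bcl11b averaged 655 in WT somata and 1082 in KO-labelled somata, where the sums averaged 2616 and 3088. The gap between the soma sums is therefore not read as one of the other markers.

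Ppfibp1 is the member with the widest gap between soma groups and Ppfibp2 is its only β paralogue, so DNA upstream of each gene is shown. The sequences come from RefSeq on GRCm38.p6, plus strand, 5′ to 3′. The Ppfibp1 stretch is cut to end right before its gene start in the deposited coordinates. For Ppfibp2 the first of several RefSeq entries is printed, which ends upstream of its deposited gene start (107595207). Its other entries have 49.2% to 50.4% G and C. Capitals mark CCAAT in the first and TGACCA in the second, each searched on both strands; CCAAT is a common promoter element, and TGACCA is the motif known for BCL11A, the paralogue of BCL11B.
Ppfibp1, chr6:146888244-146888486: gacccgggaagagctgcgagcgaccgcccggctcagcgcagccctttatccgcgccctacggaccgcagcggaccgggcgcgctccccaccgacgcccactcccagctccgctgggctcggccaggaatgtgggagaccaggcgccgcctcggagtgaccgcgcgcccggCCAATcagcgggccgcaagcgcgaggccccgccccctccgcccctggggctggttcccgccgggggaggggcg
Ppfibp2, chr7:107594801-107595050: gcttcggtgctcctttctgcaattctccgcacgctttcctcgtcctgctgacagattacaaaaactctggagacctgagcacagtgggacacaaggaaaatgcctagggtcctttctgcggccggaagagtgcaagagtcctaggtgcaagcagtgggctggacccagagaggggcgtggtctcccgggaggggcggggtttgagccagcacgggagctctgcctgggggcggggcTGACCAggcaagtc
The Ppfibp1 stretch has 77.8% G and C and 34 CpG, and the Ppfibp2 stretch has 61.2% and 11. All 6 members have RefSeq promoter entries, 10 in all. TGACCA was found in 1 of these 10 windows of 250 bases, the one printed for Ppfibp2, and in 11.4% of all 32851 windows. CCAAT was found in 3 of the 10, those of Ppfia1, Ppfia3 and Ppfibp1, and in 33.9% of all windows. A match says only that the letters are there.

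Of the α liprins, Ppfia2, a neuronal form, was the most abundant member by exon length in all 4 groups. It lies on chromosome 10 (GRCm38, 106470339 to 106935952, plus strand; ENSMUSG00000053825.15). Its mean level was 7.48 ± 2.24 CPM per kb of exon (SD, n = 5) in WT somata, 8.84 ± 2.22 in KO-labelled somata, 7.44 ± 2.18 in WT growth cones and 8.25 ± 2.18 in KO-labelled growth cones. It ran from 57.3 to 130 CPM over all 20 libraries, with a coefficient of variation of 25.1% to 29.9% within groups. The 4 groups overlapped. Of its exon bases 22.3% lie opposite exons of Acss3, which has 0 counts in every library, so reads from there may have been lost if counting ignored strand, which the sources used here do not state.

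Ppfia3, the other mainly neuronal α liprin (chromosome 7, 45339122 to 45367019, minus strand), followed at 4.48 ± 1.03 CPM per kb in WT somata and 5.22 ± 1.13 in KO-labelled somata. In growth cones it stood at 5.14 ± 1.22 in WT and 7.22 ± 4.19 in KO-labelled libraries. The wide last value came from libraries 7, 8, 9, 10 and 11 at 12.5, 94.4, 61.7, 36.3 and 80.4 CPM, a range that takes in every library of the other 3 groups. Ppfia4 (chromosome 1, 134296783 to 134332928, minus strand) had 11.5 to 21.9 CPM in WT somata, 13.2 to 26.2 in KO-labelled somata, 12.7 to 51.2 in WT growth cones and, in KO-labelled growth cones, 16.6 to 63.0. Its highest growth cone libraries lay above all somata and its lowest among them. Ppfia1, the broadly expressed α liprin (chromosome 7, 144476758 to 144553729, minus strand), had 6.94 to 32.4 CPM in WT somata, 5.45 to 34.3 in KO-labelled somata and 7.20 to 50.05 in WT growth cones. Growth cones labelled KO 7 to 11 held 30.7, 29.6, 56.4, 38.6 and 0.722 CPM, so that library 11, at 16 counts, was the lowest of the 20. Its coefficient of variation was 57.3% to 91.4%, against a median over genes with at least 5 CPM of 19.5% and 23.1% in the soma groups and 42.5% and 46.3% in the growth cone groups.

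Ppfibp1 (ENSMUSG00000016487.15, chromosome 6, 146888487 to 147032025, plus strand) is the member whose soma difference led to the choice of the family. Its soma values are therefore a description. In WT somata 12, 14, 22, 25 and 26 it stood at 71.9, 83.1, 65.6, 41.9 and 60.9 CPM. In KO-labelled somata 14, 15, 22, 25 and 26 it stood at 19.4, 15.5, 13.6, 14.8 and 15.4 CPM. Every WT soma was above every KO-labelled soma, as was so for 1.32% of all genes (3.13% in either direction). KO-labelled somata lay close together, with a coefficient of variation of 13.8% against 23.5% in WT. WT growth cones 7 to 11 held 1.30, 6.33, 31.8, 9.68 and 9.39 CPM. Growth cones labelled KO 7 to 11 held 8.96, 0.829, 4.21, 25.1 and 2.57 CPM. The growth cone groups overlapped across nearly their whole range, each with 1 library far above its other 4, and every growth cone library lay below every WT soma. Between WT compartments 18.3% of all genes lay lower in growth cones without overlap.

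Ppfibp2, the second β liprin (chromosome 7, 107595207 to 107748583, plus strand), was scarce and patchy. WT somata 12, 14, 22, 25 and 26 held 81, 0, 1, 0 and 1 raw counts, and KO-labelled somata 14, 15, 22, 25 and 26 held 0, 69, 48, 0 and 0. In WT growth cones 7 to 11 there were 103, 67, 86, 17 and 1 counts, and in KO-labelled growth cones 446, 0, 69, 0 and 24. Of the 10 somata 7 were at or under 3 counts, the limit that a count of 0 allows, against 3 of the 10 growth cones; the limit covers counting error only, as the protocol has no molecular identifiers.

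**Figure D1:**
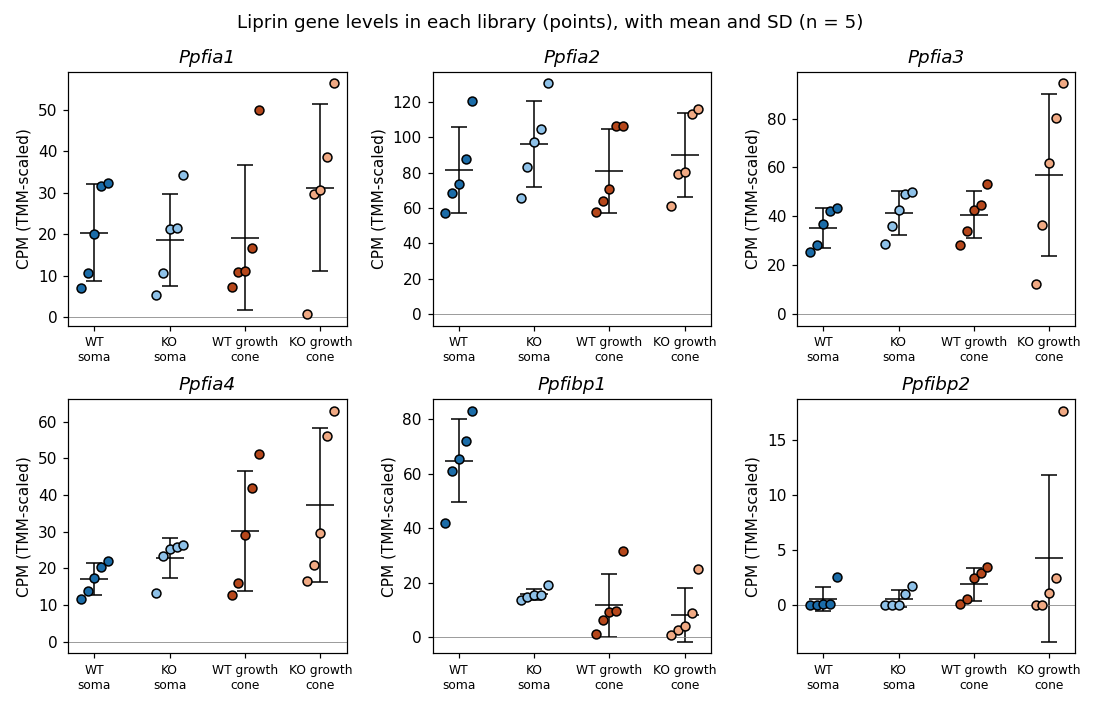
Level of each liprin gene in CPM (TMM-scaled, linear axes that differ between panels) in WT and KO-labelled somata and growth cones; points are libraries, bars the mean and SD of 5. Ppfibp1, whose soma difference led to the choice of the family, separates WT somata (41.9 to 83.1 CPM) from the other 3 groups, while the Ppfia2 groups overlap.

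The order of the levels by exon length was the same in 3 groups and differed in WT somata by the place of Ppfibp1. Its soma difference led to the choice of the family, so the order and the β share in somata restate that difference. In WT growth cones, KO-labelled growth cones and KO-labelled somata it ran Ppfia2, Ppfia3, Ppfia4, Ppfia1, Ppfibp1, Ppfibp2. In WT somata Ppfibp1, at 5.81 ± 1.37 CPM per kb, was second, between Ppfia2 and Ppfia3. Neighbours in the order overlapped in range in all 4 groups, except Ppfia1 above Ppfibp2 in WT somata and Ppfibp1 above Ppfibp2 in KO-labelled somata. The 6 members together came to 22.02 ± 2.37 CPM per kb in WT somata, 20.5 ± 2.63 in KO-labelled somata, 19.9 ± 4.76 in WT growth cones and 24.8 ± 6.16 in KO-labelled growth cones. The β liprins took 26.5% ± 5.51 of that sum in WT somata (19.2% to 31.6%) and 7.15% ± 0.239 in KO-labelled somata. In growth cones they took 5.66% ± 3.68 in WT and 5.73% ± 6.60 in KO-labelled libraries.

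**Figure D2:**
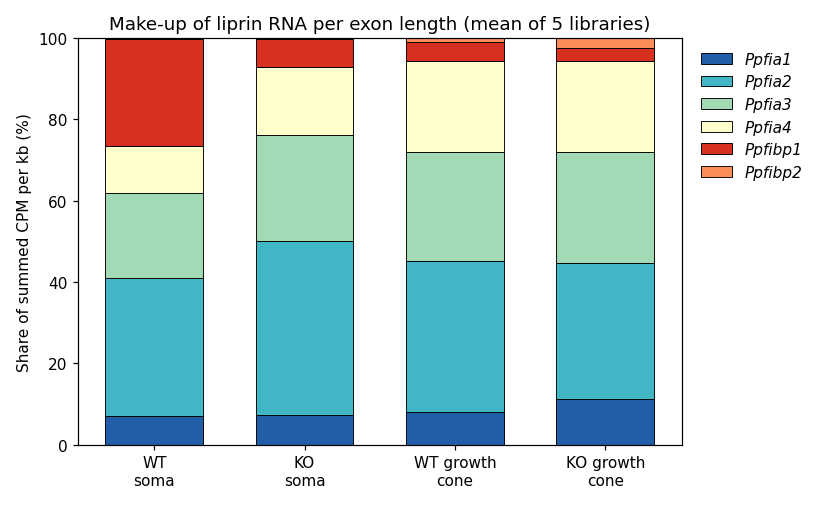
Mean share (%) of each liprin gene in the summed CPM per kb of the 6 members, by group, over 5 libraries each. The Ppfibp1 share is 26.3% in WT somata and 3.34% to 6.91% in the other 3 groups, and its soma difference led to the choice of the family.

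Between soma groups, the comparison with which the members were chosen, Ppfibp1 differed by a log2 fold change of -2.04 ± 0.19 (SE), 4.11-fold lower where labelled KO. The 4 α liprins had log2 fold changes of -0.13 ± 0.51 for Ppfia1, 0.25 ± 0.22 for Ppfia2, 0.22 ± 0.21 for Ppfia3 and 0.42 ± 0.25 for Ppfia4, and their groups overlapped. Ppfibp2 did not pass the filter on low counts. Over all 14911 genes fitted, 0.731% passed a false discovery rate (FDR) of 0.05, and 0.315% of all genes passed as lower. The soma groups did not overlap for 3.13% of genes, with 1.32% lower in KO-labelled somata, and for the members nothing is read from these shares. Without any 1 library the Ppfibp1 value lay between -2.16 and -1.93. In bulk RNA, fewer cells that express a gene and less of its RNA per cell cannot be told apart. Markers moved alongside: the summed interneuron list was 121 to 194 CPM in WT somata and 389 to 547 CPM in KO-labelled somata, but 26.3 to 75.0 and 15.7 to 68.8 CPM without Npy. Of the 12 projection neuron markers 4 (Bcl11b, Etv1, Tox and Diaph3) passed as higher and 2 (Crym and Pcp4) as lower in KO-labelled somata. Of 26 tested genes of the astrocyte, oligodendrocyte, microglia and vessel lists 0 passed by edgeR and 0 had an unadjusted p under 0.05, the hindbrain and choroid plexus lists had 0 genes past the count filter, and the part of any of these in the Ppfibp1 difference was not tested.

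Growth cones labelled KO were then compared with WT growth cones, where none of the members had been chosen on its values. None of the 6 passed an FDR of 0.05 by edgeR, none had an unadjusted p under 0.05, and none passed by the DESeq2 Wald test; over all 15419 genes 0% passed by edgeR. The groups overlapped for all 6 members, and did not for 0.538% of genes. Each member had an adjusted p of 0.999. The log2 fold change was 0.17 for Ppfia2, with a 95% interval of -0.40 to 0.73, and 0.51 for Ppfia3 (-0.46 to 1.48). For Ppfia4 it was 0.33 (-0.77 to 1.43) and for Ppfia1 0.74 (-1.04 to 2.53). Ppfibp1 stood at 11.7 ± 11.7 CPM in WT and 8.33 ± 9.84 CPM in KO-labelled growth cones, a log2 fold change of -0.43 with an interval of -2.59 to 1.73, which takes in both 0 and the value seen in somata. That sign rests on single libraries: without WT growth cone 9 it was 0.36, and without KO-labelled growth cone 10 -1.49. Ppfibp2 had 1.21 (-2.49 to 4.90), and -1.09 without KO-labelled growth cone 7. The median over the 6 members was 0.42, against 0.01 over all genes. This median includes both β liprins, whose signs turn without 1 library, and all 6 intervals take in 0. It is a description only.

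The difference between the genotype effects in growth cones and somata was fitted over all 20 libraries, which include the somata used for the choice, so it is given without a test. For Ppfibp1 it was 1.56 ± 0.99 (SE) on the log2 scale, from 0.54 without KO-labelled growth cone 10 to 2.38 without WT growth cone 9. The values for the α liprins were 0.82 ± 1.04 (Ppfia1), -0.09 ± 0.34 (Ppfia2), 0.26 ± 0.52 (Ppfia3) and -0.12 ± 0.58 (Ppfia4). For Ppfibp2 it was 1.21 ± 2.83, and its sign turned to -3.32 without WT soma 12, where the remaining WT somata hold 0 or 1 counts, and to -1.10 without KO-labelled growth cone 7. Of 17645 genes 0.0397% passed an FDR of 0.05.

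**Figure D3:**
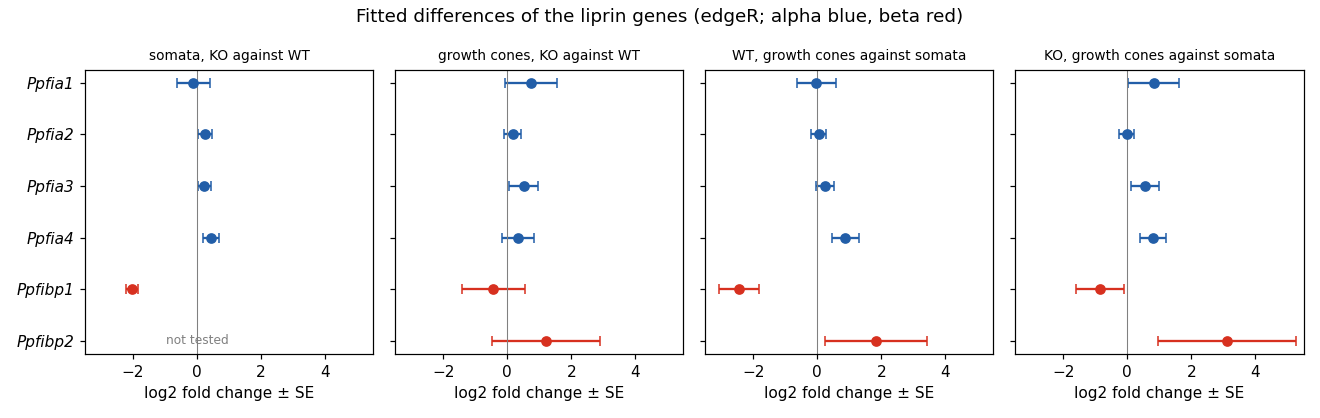
Fitted log2 fold changes (edgeR) of the liprin genes in 4 comparisons, with SE bars, where Ppfibp2 has no fit between soma groups; blue is α, red is β. Ppfibp1, whose soma difference led to the choice of the family, is at -2.04 in somata and -2.43 between WT compartments.

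Growth cones were compared with somata in each genotype to see which liprin RNAs are present in axon tips and at what level. All 4 α liprins were counted in growth cones. In WT none of the 4 passed by edgeR, where 42.8% of 15128 genes did. Ppfia2 had a log2 fold change of 0.04 in WT (95% interval -0.50 to 0.58, edgeR adjusted p 0.917) and -0.02 in KO-labelled libraries (-0.52 to 0.48, adjusted p 0.956). With TMM scaling those intervals leave out differences of more than 0.58 on the log2 scale between these libraries. Under the alternatives the Ppfia2 value reached 0.248 in WT and 0.175 in KO-labelled libraries, so the bound depends on the scaling. Ppfia3 had 0.24 (-0.34 to 0.82, edgeR adjusted p 0.499) and 0.54 (-0.41 to 1.498, adjusted p 0.360). Ppfia1 had -0.03 (-1.35 to 1.28, edgeR adjusted p 0.972) and 0.82 (-0.91 to 2.55, adjusted p 0.446). The sign for Ppfia1 in WT and for Ppfia2 in KO-labelled libraries turns with the scaling used. Ppfia4 was nearest to a call, at 30.2 ± 16.5 against 17.0 ± 4.37 CPM in WT (0.87 ± 0.42 SE, edgeR adjusted p 0.113) and 37.3 ± 21.1 against 22.7 ± 5.46 CPM in KO-labelled libraries (0.79 ± 0.41, adjusted p 0.152). It passed in WT without WT growth cone 11 (edgeR adjusted p 0.0436).

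Ppfibp1 was lower in WT growth cones by description, with 64.7 ± 15.2 CPM in somata and 11.7 ± 11.7 CPM in growth cones, 5.40-fold lower (log2 fold change -2.43 ± 0.62 SE). The groups did not overlap, as was so for 38.0% of all genes (18.3% in this direction), and 19.7% of genes passed as lower. Its WT somata are the high group of the comparison that led to its choice, and its KO-labelled somata the low group. No test is therefore given for Ppfibp1 in either genotype. Without WT growth cone 9 its log2 fold change was -3.23, and without WT growth cone 7 -2.11. In KO-labelled libraries it had 8.33 ± 9.84 against 15.7 ± 2.17 CPM, a log2 fold change of -0.85 ± 0.75 (SE), and the groups overlapped. Without KO-labelled growth cone 10 that fold change was -1.84, and without KO-labelled growth cone 8 it was -0.57. In these libraries none of the α liprins passed by edgeR or by the DESeq2 Wald test, and none had an unadjusted p under 0.05. Over all 15410 genes 38.6% passed by edgeR. The groups overlapped for all 6 members, and did not for 36.8% of genes. Ppfibp2 had log2 fold changes of 1.84 ± 1.59 (SE) in WT and 3.11 ± 2.15 in KO-labelled libraries. It passed the count filter here, through its growth cone libraries, and not between soma groups, so no test is given for it. Without WT soma 12 the WT somata hold 0 or 1 counts each, and no fold is given. Without KO-labelled growth cone 7 the value in KO-labelled libraries was 0.72, and without KO-labelled soma 15 it was 4.16. The median over the 6 members was 0.14 in WT and 0.66 in KO-labelled libraries, against 0.07 and 0.11 over all genes. It includes both β liprins and is a description only.

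Summed markers of 6 of the 7 other cell types or regions did not overlap between compartments and were higher in the growth cone libraries. The summed astrocyte list was 838 to 1086 CPM in WT growth cones and 23.4 to 188 CPM in WT somata, with 8 of 9 genes past the threshold. The oligodendrocyte list was 608 to 2385 against 63.9 to 118 CPM (7 of 10), vessels and blood 263 to 512 against 2.99 to 22.1 CPM, and interneurons 824 to 989 against 121 to 194 CPM (10 of 11). Hindbrain and spinal cord genes were at 125 to 213 against 0.105 to 0.222 CPM, with Hoxa3, Hoxb3, Hoxc4 and Hoxc6 at 0 in all WT somata. Choroid plexus genes were at 267 to 417 against 0.105 to 1.77 CPM, with Kl and Otx2 at 0 in all WT somata. Genes of the vessel, hindbrain and choroid plexus lists passed the count filter largely through the growth cones, so no count of called genes is given for them. The other counts also include genes of this kind: S100b, Sox10, Mag and Slc32a1 averaged 0.248, 0.144, 0.400 and 0.302 CPM in WT somata. In KO-labelled somata Sox10 and Slc32a1 averaged 0.153 and 0.207 CPM. Such genes had no fit between soma groups and could pass only as higher in growth cones. The microglia sums overlapped, at 45.2 to 78.9 against 3.29 to 89.2 CPM, and 1 of 7 tested genes, Aif1, passed. Of the 12 projection neuron markers 8 passed as lower and 1 as higher in WT growth cones. In the KO-labelled libraries the growth cones held 592 to 1153 CPM of the astrocyte list against 97.2 to 246 CPM in somata, 589 to 1711 against 87.3 to 121 CPM of the oligodendrocyte list and 254 to 564 against 0.312 to 66.6 CPM of the vessel and blood list. They held 801 to 1083 against 389 to 547 CPM of the interneuron list, 78.2 to 235 against 0.0567 to 1.00 CPM of the hindbrain list, 235 to 372 against 0.113 to 1.88 CPM of the choroid plexus list and 18.3 to 125 against 10.1 to 92.7 CPM of the microglia list. There 6 of 9 astrocyte, 6 of 9 oligodendrocyte, 10 of 11 interneuron and 1 of 7 microglia genes passed as higher in growth cones. Of the rest, 1 interneuron gene and 8 of 12 projection neuron markers passed as lower, and 2 projection neuron markers, Pcp4 and Crym, as higher. Tissue, experiment numbers and the RNA amount that entered a library (1.8 to 3.1 ng for somata, 0.19 to 3.1 ng for growth cones) differ between compartments in the same way and cannot be told apart from it. The part of these cells in the liprin levels of growth cones was not tested.

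The partners of the liprins, a list of 52 genes in 5 groups, did not differ between genotypes at the threshold. The list was drawn up with earlier results of these data known. In somata 0 of 44 passed by edgeR and 0 by DESeq2, and 1, Rims2, had an unadjusted p under 0.05 (log2 fold change 0.69 ± 0.26 SE, edgeR adjusted p 0.441). In growth cones 0 of 51 passed by either tool and 0 had an unadjusted p under 0.05. The interaction gave 0 of 51 by either tool, with 3, Caskin2, Tanc1 and Syde1, at an unadjusted p under 0.05. These 3 had too few soma counts for a fit between soma groups. Their means were 0.012, 0.0063 and 0.042 CPM in WT somata and 0.82, 1.60 and 0.0049 CPM in KO-labelled somata. Nothing is read from their interaction values. Between compartments 20 of 45 passed in WT, 9 higher and 11 lower in growth cones, and 19 of 48 passed in KO-labelled libraries, 8 higher and 11 lower. These shares are close to those of all genes. With upper-quartile scaling the splits were 13 higher and 8 lower in WT and 9 and 8 in KO-labelled libraries, and the median of all genes rose to 0.28 and 0.31. The list's median was -0.07 in WT and 0.01 in KO-labelled libraries. Both genotypes shared 14 calls with the same sign, 6 higher and 8 lower, which is 70.0% of the WT calls and 73.7% of the others. Over all genes the shares were 72.5% and 78.9%.

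Of the 3 receptor phosphatases 3 passed as lower in WT growth cones and 2 in KO-labelled ones, where 19.7% and 17.0% of all genes did. Ptprs, a LAR-type receptor phosphatase that binds heparan and chondroitin sulphates, fell from 679 ± 197 to 264 ± 44.4 CPM in WT (-1.32 on the log2 scale, edgeR adjusted p 0.000404) and from 690 ± 27.8 to 211 ± 48.7 CPM in KO-labelled libraries (-1.63, adjusted p 9.75e-06). Ptprd fell by 1.08 and 1.11 on the log2 scale (edgeR adjusted p 0.00649 and 0.000249). Ptprf, which encodes LAR itself, was called in WT (-0.78, edgeR adjusted p 0.0493), lost that call in 8 of 10 fits without 1 library (up to 0.164 without WT soma 25), and did not pass in KO-labelled libraries (-0.72, adjusted p 0.0630). Of the receptors' ligands, Lrfn5 and Lrfn4 fell, with log2 fold changes of -2.12 and -1.68 in WT and -2.07 and -2.17 in KO-labelled libraries. Slitrk3, a synaptic adhesion protein gene, fell by 1.73 and 2.49 (edgeR adjusted p 0.00774 and 0.0272), the second call being lost in 4 of 10 fits, up to 0.0569 without KO-labelled growth cone 8. Lrrc4b, encoding the adhesion protein NGL-3, rose from 24.8 ± 9.94 to 134 ± 54.4 CPM in WT (2.47, edgeR adjusted p 0.000121) and from 23.9 ± 2.37 to 107 ± 26.1 CPM in KO-labelled libraries (2.24, adjusted p 1.61e-05).

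Among active zone scaffolds, Erc1, which encodes an ELKS protein found in both active zones and the cortical platforms, fell by 1.23 in WT and by 1.30 in KO-labelled libraries (log2 scale, edgeR adjusted p 0.000551 and 0.00280). Tspoap1, encoding a RIM-binding protein, rose in WT (2.60, edgeR adjusted p 0.0160) and in KO-labelled libraries (1.92, adjusted p 0.0198), where 3 of 10 fits lost the call (0.0554 at most, without KO-labelled growth cone 7). Rims1 rose in KO-labelled libraries (1.06, edgeR adjusted p 0.00631), while its WT call (0.91, adjusted p 0.0414) was lost in 7 of 10 fits, up to 0.113 without WT growth cone 11. Bsn, encoding the scaffold Bassoon, was called in WT (1.29, edgeR adjusted p 0.0337), a call lost in 6 of 10 fits and up to 0.0960 without WT growth cone 10; in KO-labelled libraries it had 1.35 and an adjusted p of 0.0543.

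The adaptors of α liprins went both ways. Of the small PDZ proteins that join CASK, Lin7c fell from 457 ± 44.2 to 139 ± 28.8 CPM in WT (-1.67 on the log2 scale, edgeR adjusted p 8.69e-06), and from 499 ± 78.5 to 122 ± 28.2 CPM in KO-labelled libraries (-1.96, adjusted p 8.23e-06). Lin7b rose from 9.75 ± 3.38 to 30.3 ± 7.07 CPM in WT (1.69, edgeR adjusted p 0.00321) and from 9.90 ± 1.17 to 22.7 ± 4.83 CPM in KO-labelled libraries (1.28, adjusted p 0.0101). Lin7a rose in KO-labelled libraries, from 2.48 ± 0.661 to 23.8 ± 11.97 CPM (3.35, edgeR adjusted p 0.000253), and in WT had 2.21 with an adjusted p of 0.0660. Cask itself fell in WT (-0.82, edgeR adjusted p 0.00663) and in KO-labelled libraries (-0.9995, adjusted p 0.0267), the latter call being lost in 2 of 10 fits, up to 0.0551 without KO-labelled growth cone 10. Caskin1, encoding a CASK-binding protein, rose by log2 fold changes of 1.49 and 1.18 (edgeR adjusted p 0.00134 and 0.00618). Among the cortical platform genes, to which Ppfibp1 belongs, Phldb1, encoding an LL5 protein, rose in WT (2.72, edgeR adjusted p 0.00261) and in KO-labelled libraries (1.77, adjusted p 0.0196), the latter call being lost in 1 of 10 fits (0.0520 without KO-labelled soma 22). Clasp1 was called lower in WT (-0.99, edgeR adjusted p 0.0232), a call lost in 4 of 10 fits, up to 0.0607 without WT soma 14. Clasp2 was lower in KO-labelled libraries (-0.55, edgeR adjusted p 0.0174).

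**Figure D4:**
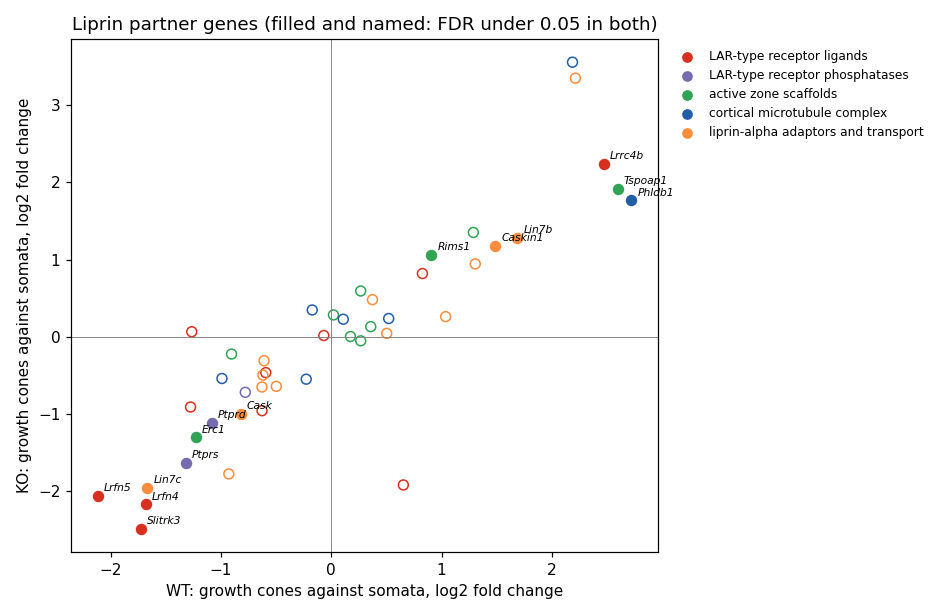
Log2 fold change of growth cones against somata for the liprin partner genes, WT on the horizontal and KO-labelled libraries on the vertical axis; each point is a gene fitted in both, filled and named where it passed an FDR of 0.05 in both. The 14 named genes lie in the lower left (8) or the upper right (6).

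The genes most like 5 of the members across the 20 libraries were sought by the root mean square difference of centred log2 CPM, over 10690 genes. The nearest to Ppfibp1 were Pls3, Edem1 and Dock3, with differences of 0.906, 0.952 and 1.03, where the median gene had 1.92. Ppfia2 was nearest to Rbm39, Ankrd12 and Rdx (0.299 to 0.319, median 0.978), and Ppfia3 to Map2k7, Sos1 and Cabp1 (0.353 to 0.402, median 1.11). Ppfia1 lay nearest to Trabd, Bsdc1 and Nxn (0.830 to 0.897, median 1.66). Ppfibp2 had no close match, the nearest being Fam71e1, Agbl3 and Spata33, with differences of up to 2.07 (median 2.93).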

How the data were processed

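RNA libraries were made from subcerebral projection neuron somata and growth cones with SMART-seq v4 and Nextera XT, per the labels' protocols. The values are raw counts per gene, deposited by the authors as 1 table with no scaling, whose columns were assigned to samples by title. Trimmomatic 0.39, STAR 2.7.1a, featureCounts 1.5.0 and build GRCm39 are named, per the submitters' processing notes. The deposited coordinates are those of GRCm38: the exons of 98.1% of the 55487 genes equal those in GENCODE M21. Strand use and the treatment of multi-mapping reads are not given in the sources used here. Exon length in bases was taken from the deposited table. Entries that name no gene made up 0 of the table.

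Tests used edgeR 4.0.16 in R 4.3.3 (filterByExpr with a minimum count of 10, TMM, quasi-likelihood F test, Benjamini-Hochberg over all genes fitted, FDR 0.05), with only the groups compared in a fit, except that the interaction used all 20 libraries. SE and 95% intervals come from the fold change and its F value. Errors of levels are SD. No 2 libraries of a group were alike within sampling noise (smallest chi-square over degrees of freedom 56.6). The edgeR code was tested on simulated data. Experiment numbers 7 to 11 recur in both growth cone groups, and 14, 22, 25 and 26 in both soma groups.

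The members and all lists were chosen with earlier results of these data known. All 6 members are named in every comparison. Of each partner group, at most 4 genes with the lowest p past the threshold were eligible for naming, and Rims2, Caskin2, Tanc1, Syde1 and the values of called genes in the other genotype are given beyond that rule. For likeness, log2 CPM had a prior count of 2 and genes needed a mean of 5 CPM. The likeness result for Ppfia4 is not reported here. Marker lists covered choroid plexus, hindbrain and spinal cord, interneurons, vessels and blood, microglia, the oligodendrocyte lineage, astrocytes and projection neurons, summed in CPM of the library total. Alternatives were 3 other scalings, the DESeq2 1.42.0 Wald test, no count filter, 1 fit of all 20 libraries, the experiment number as a block, and leaving out each library.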

Additional observations from a re-analysis of the deposited data

Results flagged for a closer look

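In 5 of the 24 member and group combinations 1 of the 5 libraries stood apart, its gap to the nearest other exceeding 0.71 of the group's range. The cutoff flags about 1 in 20 groups where values are normally distributed. Levels spread as widely as those of Ppfibp1 and Ppfibp2 are not, so no excess is read from the 5 flags. For Ppfia1, WT growth cone 8 had 50 CPM where the other 4 had 7.20 to 16.7 CPM. Ppfia4 in KO-labelled soma 25 was at 13.2 CPM, below the 23.2 to 26.2 CPM of the others. For Ppfibp1, WT growth cone 9 had 31.8 CPM against 1.30 to 9.68 CPM. Ppfibp2 in KO-labelled growth cone 7 was at 17.7 CPM against 0 to 2.44 CPM, and in WT soma 12 at 2.56 CPM against 0 to 0.0579 CPM. Of these 5, 3 are β liprins, and 4 are libraries high among low values.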

How the results depend on the processing

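Of 792 recomputed values, the counts of partners past the threshold stayed within 1.5 times under every alternative run. The number of members past it between WT compartments, which includes Ppfibp1 and is no independent result for it, ranged from 1 to 2 without 1 library. It was 2 without WT growth cone 11 (Ppfia4 added) or WT soma 12 (Ppfibp2 added, against somata at 0 or 1 counts). No test is given for Ppfibp1 or Ppfibp2, so their part in these counts is not read as a call. Counts over all genes moved more. With the DESeq2 Wald test 11 genes passed between growth cone groups, 402 between soma groups and 273 for the interaction. With all 20 libraries in one fit 7 passed in growth cones and 30 in somata. The replicate block, the experiment number as a factor, gave 34 in somata and 0 for the interaction. The numbers were not taken as pairs in the main fits, since the deviations of same-numbered libraries did not all correlate above 0.1 (r 0.0168 to 0.102 in growth cones, -0.0136 to 0.107 in somata). That cut does not settle whether they are pairs, and the main fits leave any pairing out. As a hint from the data, 3 of 5 and 3 of 4 WT libraries correlated best with their own number. Without 1 library the counts were 67 to 107 in somata and 5 to 12 for the interaction. The cause of these shifts was not tested.

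Signs turned for members that did not pass. The Ppfibp2 interaction was -1.63 under the block and -3.32 to 2.27 without 1 library. Ppfibp2 between growth cone groups was -0.66 under the block and -1.09 to 1.56 without 1 library, and Ppfibp1 there was -1.49 to 0.36. Ppfia1 between WT compartments was 0.0506 with DESeq2 size factors and 0.0507 with the DESeq2 Wald test, 0.16 with upper-quartile scaling, 0.0653 with library totals and -0.76 to 0.28 without 1 library. Ppfia2 between WT compartments was -0.0047 in the fit of all 20 libraries and -0.0843 to 0.19 without 1 library. In libraries labelled KO Ppfia2 was 0.0086 with DESeq2 size factors and with the DESeq2 Wald test, 0.18 with upper-quartile scaling, 0.0903 with library totals and -0.15 to 0.10 without 1 library. Ppfibp2 was the scarcest member, with 0 to 446 counts a library, and these low and scattered counts limit each of its own comparisons.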
